A study of Mus musculus with 5 samples.

Results

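The 10 genes described here encode S100 calcium-binding proteins, and all 10 were found by symbol among the 24970 genes counted in each library. They are S100a1, S100a4, S100a6, S100a8, S100a9, S100a10, S100a11, S100a13, S100a14 and S100a16. RNA was sequenced from bladder urothelium, an epithelium, that had been dissected from mice 10 weeks old. The groups were 2 wild types labelled C57Bl/6 (WT 1 and WT 2) and 3 knockouts (KO 1 to KO 3) of genotype Krt5CreERT2;Ncstnflox/flox, 1 library per mouse. In the knockouts an inducible Cre expressed from the basal cell keratin gene Krt5 acts on floxed Ncstn, which encodes the gamma-secretase subunit nicastrin needed to activate Notch receptors. The labels do not give the way of inducing Cre and do not describe the wild types as carrying it, so loss of Ncstn and any effect of Cre, its induction or strain background cannot be told apart. Cells that never expressed Krt5 keep the gene. Ncstn itself was at 144 (WT 1), 130 (WT 2), 114 (KO 1), 117 (KO 2) and 123 CPM (KO 3), where CPM is counts per library scaled to a common size. It lay lower in each knockout by 1.16-fold on average, which missed the threshold (adjusted p = 0.133 in edgeR). The floxed exons are not stated in the labels and whole-gene counts include reads from the others, so knockout here means the libraries so labelled.

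S100 proteins are small proteins with paired EF-hand calcium-binding loops. Most form dimers, and on binding calcium they expose a surface that grips target proteins such as annexins, myosin and cell surface receptors. S100A8 and S100A9 together form calprotectin, a metal-chelating antimicrobial complex stored in neutrophils and induced in stressed surface epithelia. S100A14 and S100A16 are typical of epithelia, whereas S100A4, also named fibroblast-specific protein, is widely used as a marker of mesenchymal cells and is also made by leukocytes. The comparison asked how genes of these myeloid, epithelial and mesenchymal kinds stood in knockout and wild-type urothelium.

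S100a8 and S100a9 rose from close to no reads in the wild types to levels well above them in all 3 knockouts, and S100a1 rose 1.69-fold. The epithelial genes S100a14 and S100a16 and the mesenchymal gene S100a4 did not pass the test, and S100a6 and S100a11 lay higher in every knockout without passing it. Of the 10 genes, 3 were higher and 0 lower (edgeR quasi-likelihood test, Benjamini-Hochberg adjusted over 14779 tested genes, threshold 0.05). Across all tested genes 9.64% were higher and 10.0% lower, 19.7% in all. S100a8 and S100a9 passed the filter on low counts through the knockouts alone, so the filter itself favoured a difference and their calls are descriptions. This leaves S100a1 as 1 call among the other 8. At an unadjusted p under 0.05, 4 of the 10 were higher and 0 lower, with S100a8 and S100a9 among the 4. Of all 14779 tested genes, 5145 had an unadjusted p under 0.05 in either direction. DESeq2 called 5 of the 10 higher and 0 lower, and 2902 genes in either direction over the whole series. The difference of these counts from those of all genes was not tested.

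All 10 genes lie on chromosome 3, in a run of 14 genes with S100 symbols (GRCm38, RefSeq positions). Of these, 12 sit in a block of 184.7 kb from S100a1 to S100a9 that holds no other gene of the count files. S100a11 and S100a10 follow after a gap of 2825 kb. S100a8 (chr3:90669071-90670034, plus strand) and S100a9 (chr3:90692630-90695721, minus strand) are neighbours that point towards each other, 22.6 kb apart. The 250 bases before the start sites of this pair are shown because both genes rose together from very low levels. They are given 5′ to 3′ on the strand of the gene (RefSeq, GRCm38.p6), with capitals for matches on either strand to TTNCNNAA, a C/EBP-like pattern, or TGGGAA, the core bound by the Notch effector RBPJ.
S100a8 (chr3:90668821-90669070, plus strand): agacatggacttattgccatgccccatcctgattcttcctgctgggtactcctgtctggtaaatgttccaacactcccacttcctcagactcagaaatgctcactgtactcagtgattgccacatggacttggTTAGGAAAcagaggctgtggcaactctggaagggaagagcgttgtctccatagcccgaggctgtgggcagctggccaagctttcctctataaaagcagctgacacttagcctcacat
S100a9 (chr3:90695722-90695971, minus strand): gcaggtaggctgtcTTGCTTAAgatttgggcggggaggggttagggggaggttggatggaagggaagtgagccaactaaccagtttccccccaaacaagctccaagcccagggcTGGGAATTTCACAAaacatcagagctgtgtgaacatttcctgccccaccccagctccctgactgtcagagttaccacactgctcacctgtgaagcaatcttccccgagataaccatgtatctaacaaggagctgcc
The S100a8 window held 1 C/EBP-like match, TTAGGAAA as read on the strand of the gene. S100a9 held the C/EBP-like matches TTGCTTAA and TTTCACAA, and an RBPJ core that ends where the latter begins. Of 32851 promoter windows in the table, each running from 250 bases before to 50 bases after a start site, 40.7% held the C/EBP-like pattern, 25.6% the RBPJ core and 7.81% the AP-1 pattern TGANTCA. Windows were found for 8 of the 10 S100 genes, all but S100a10 and S100a14. Among these 8, the RBPJ core was found in 4 (S100a4, S100a6, S100a9 and S100a16), the C/EBP-like pattern in 2 (S100a8 and S100a9) and the AP-1 pattern in 2, S100a11 and S100a16. A match is a run of letters and not a shown binding site.

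Gene counts came to between 12608836 (KO 3) and 27188499 (KO 1) per library, and the scaling factors lay between 0.978 and 1.03. Rn45s, a precursor of ribosomal RNA, made up 7.84% of the reads of WT 1, 3.23% of those of WT 2 and 0.608% to 1.53% in the knockouts. WT 1 also lay below WT 2 in all 10 S100 genes, although for S100a8 each had a single count. Among 437 tested genes with 1000 or fewer exon bases, 78.5% were lower in WT 1 than in WT 2, against 50.3% of all tested genes. The S100 genes had 511 to 1727 exon bases, and 6 of the 10 fell in this class of short genes. The median log2 fold change from wild type to knockout was 0.27 for the 10 genes, 0.11 for the short genes and 0.01 for all tested genes. The part of message length or Rn45s in the results was not tested, and the 3 calls were kept without Rn45s, Malat1 and Neat1.

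Levels between genes were compared as CPM per kilobase of exon, shown for every library in the plot of levels per kilobase. The order in the wild types began with S100a6 at 2322 ± 515 (SD, n = 2), then S100a11 at 549 ± 52.0 and S100a1 at 345 ± 58.5. S100a16 followed at 129 ± 22.5, S100a14 at 67.7 ± 8.46 and S100a10 at 45.5 ± 6.68 CPM per kilobase. S100a13 at 24.9 ± 6.82 and S100a4 at 24.2 ± 5.77 did not differ beyond their spread. S100a9 at 0.584 ± 0.685 and S100a8 at 0.0878 ± 0.0178 were the lowest. In the knockouts S100a9 reached 30.2 ± 26.6 (SD, n = 3) and S100a8 13.7 ± 9.35, so S100a9 came into the range of S100a13 at 28.3 ± 3.27 and S100a4 at 24.2 ± 6.09. The 10 genes together made up 0.347% (WT 1), 0.484% (WT 2), 0.528% (KO 1), 0.543% (KO 2) and 0.511% (KO 3) of the reads in genes. S100a6 alone held 75.4% to 78.1% of those reads in each library.

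**Figure D1:**
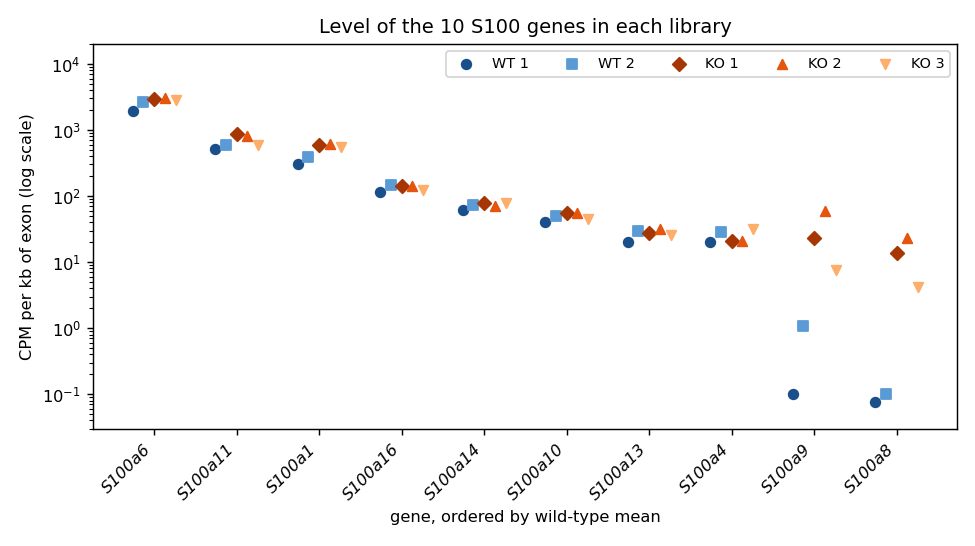
Level of each S100 gene as CPM per kilobase of exon on a log axis, with 1 point per library (blue for wild types, orange for knockouts) and genes ordered by wild-type mean. S100a6 is highest in all libraries, and only S100a9 and S100a8 show knockouts more than 5 times as high as both wild types.

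The calprotectin genes were the S100 genes with the largest fold changes. S100a8 had a single count in each wild type and 257, 265 and 38 counts in KO 1, KO 2 and KO 3. In the order WT 1, WT 2, KO 1, KO 2, KO 3 this was 0.0522, 0.0697, 9.67, 15.9 and 2.96 CPM. The groups did not overlap, and within the knockouts KO 2 was highest and KO 3 lowest. With 2 reads in the wild types together, the pooled ratio was 167-fold with a 95% interval of 46.1 to 1385 that covers counting error alone. S100a8 was called (edgeR adjusted p = 0.00138). Like S100a9, it passed the filter on low counts through the knockouts alone, so the filter itself favoured a difference and the call is a description. Its log2 fold change was 7.18, and 6.61 (without KO 2) to 7.56 (without KO 3) with 1 library left out.

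S100a9, the partner chain of S100a8, had 1, 8, 326, 517 and 51 counts in that order of libraries, or 0.0522, 0.558, 12.3, 31.1 and 3.97 CPM. The knockouts again lay above both wild types and in the same order, KO 2, KO 1 and KO 3. The fitted change was 57.1-fold (95% interval 11.3 to 288, edgeR adjusted p = 0.00477). WT 2 held 8 of the 9 wild-type reads, and the log2 fold change of 5.84 went to 4.81 without WT 1 (edgeR adjusted p = 0.0883) and to 8.06 without WT 2 (edgeR adjusted p = 0.0438). The call was also lost in a robust edgeR fit (adjusted p = 0.117) and in limma-voom (adjusted p = 0.0622). The ratio of S100a9 to S100a8 CPM was 1.27, 1.95 and 1.34 in KO 1, KO 2 and KO 3.

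Neutrophils are the classic source of calprotectin, and some but not all neutrophil markers were high in the same libraries. Of 15 neutrophil markers 9 were tested. Of the 9, 4 were higher and 1 lower, against 9.64% higher and 10.0% lower among all tested genes. The other 4 did not pass, and the median log2 fold change over the 9 was 1.88. Mmp8, Ngp, Retnlg, Ltf, Cxcr2 and Fpr1 passed the filter through the knockouts alone, so the count of higher markers and the median are descriptions. The median is the value of Fpr1, one of these genes. Of the other tested markers, Il1r2 was lower and Mmp9 and Csf3r did not pass, at log2 fold changes of -1.01, 0.80 and 0.06. Mmp8, a collagenase of neutrophil granules, was at 0.0522 (WT 1), 0 (WT 2), 1.73 (KO 1), 2.95 (KO 2) and 0.623 CPM (KO 3) (edgeR adjusted p = 0.00555). Ngp, a neutrophil granule protein gene, was at 0.0522 (WT 1), 0 (WT 2), 1.66 (KO 1), 3.49 (KO 2) and 0.234 CPM (KO 3) (edgeR adjusted p = 0.0175). Retnlg, a resistin-like gene of neutrophils, was at 0.0522 (WT 1), 0.139 (WT 2), 2.63 (KO 1), 7.04 (KO 2) and 0.545 CPM (KO 3) (edgeR adjusted p = 0.0147). All 3 genes had KO 2 highest and KO 3 lowest, as S100a8 and S100a9 did. With 1, 1 and 3 wild-type reads, the pooled ratios were 61.6-fold for Mmp8 (95% counting interval 10.8 to 2455), 62.8-fold for Ngp (11 to 2502) and 38.7-fold for Retnlg (13 to 189).

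The lactoferrin gene Ltf was the fourth to rise (edgeR adjusted p = 0.0439), although at 0.156 CPM KO 3 lay just below WT 1 at 0.157 CPM. The member that fell was Il1r2, a decoy receptor gene for interleukin 1, at 10.0 (WT 1), 12.3 (WT 2), 5.27 (KO 1), 6.92 (KO 2) and 4.36 CPM (KO 3) (edgeR adjusted p = 0.00976), a call lost without WT 1 (0.0545) and without WT 2 (0.0849). Mpo, which encodes myeloperoxidase of the primary granules, was too low to test and lay lower in each knockout, at 0.366 (WT 1), 0.627 (WT 2), 0.113 (KO 1), 0.241 (KO 2) and 0.311 CPM (KO 3). Elane and Stfa2l1 had at most 1 count in any library. Camp, also too low to test, was at 0.0522 (WT 1), 0.209 (WT 2), 0.339 (KO 1), 0.541 (KO 2) and 0 CPM (KO 3). Trem1, too low to test as well, lay higher in each knockout, at 0.0522 (WT 1), 0.139 (WT 2), 0.301 (KO 1), 0.481 (KO 2) and 0.156 CPM (KO 3). For Trem1, WT 2 and KO 3 had 2 counts each. Csf3r, the receptor gene for granulocyte colony-stimulating factor, had a log2 fold change of 0.06 (adjusted p = 0.931 in edgeR). Ly6g, which defines mouse neutrophils, had no reads in WT 1, WT 2 and KO 3 and was at 0.188 and 0.421 CPM in KO 1 and KO 2. Of the 15 markers, 12 had the order KO 2, KO 1, KO 3, among them Il1r2, which fell, and Csf3r, which did not pass. The share of all genes with this order was not counted, so the order alone does not show a shared rise. The list summed to 16.2 (WT 1), 19.4 (WT 2), 21.1 (KO 1), 38.7 (KO 2) and 12.8 CPM (KO 3), so the groups overlapped in the sum. Il1r2, which fell, supplied 10.0 CPM of this sum in WT 1 and 12.3 CPM in WT 2, against 4.36 to 6.92 CPM in the knockouts. The sum without Il1r2 was not taken. The neutrophil count of 4 higher went to 0 without WT 1, without WT 2 or without KO 1, to 1 without KO 2, to 2 in the robust fit and in limma-voom, and to 7 without KO 3. In bulk tissue, more cells of a type and more RNA per cell cannot be told apart, and the part of neutrophils in the rise of S100a8 and S100a9 was not tested.

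**Figure D2:**
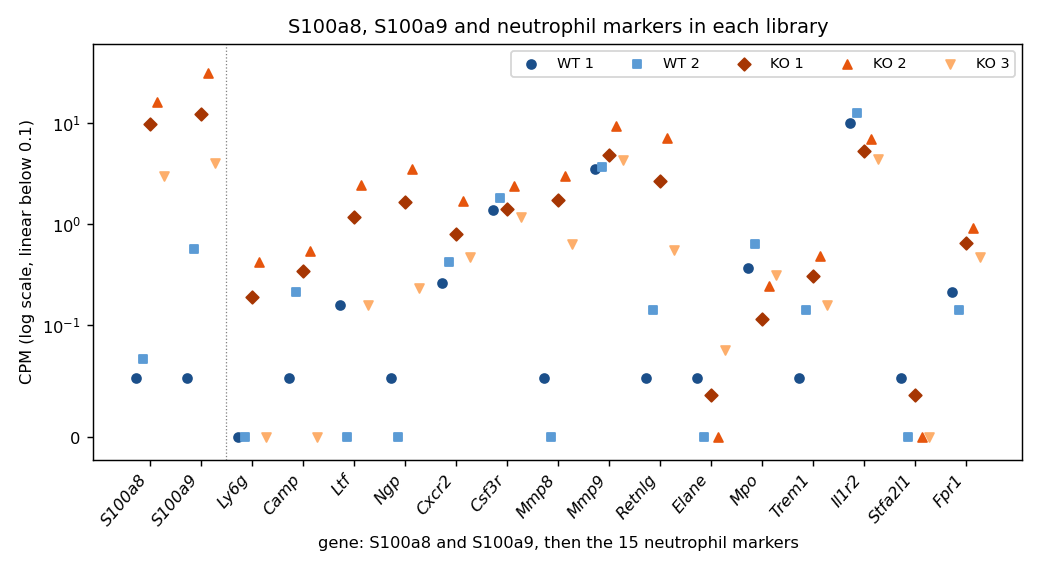
CPM of S100a8, S100a9 and the 15 neutrophil markers in each library, on an axis that is logarithmic above 0.1 and linear below it. For S100a8, S100a9, Mmp8, Ngp and Retnlg the knockouts (orange) lie above both wild types (blue), with KO 2 highest and KO 3 lowest, while Il1r2 lies lower in the knockouts.

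Monocytes also make S100A8 and S100A9, and the markers of monocytes and macrophages moved in both directions. Of 15 tested, 1 was higher, 3 were lower and 11 did not pass, with a median log2 fold change of 0.15. Among all tested genes 9.64% were higher and 10.0% lower. Ccr2, the chemokine receptor of inflammatory monocytes, fell to 2.36 ± 0.723 CPM in the 3 knockouts (mean ± SD) against 10.9 ± 0.0561 CPM in the 2 wild types (edgeR adjusted p = 0.000324). Cx3cr1 and the lysozyme gene Lyz2 fell 2.07-fold and 1.76-fold, and Cd14, a co-receptor for bacterial lipopolysaccharide, rose 1.77-fold (edgeR adjusted p = 0.0165, 0.0272 and 0.00183). Lyz2 did not pass in DESeq2 (adjusted p = 0.0954). Ccr2 was the only lower call of the 3 left without WT 1 or without WT 2, and Cx3cr1 was also lost without KO 1 (adjusted p = 0.0561 in edgeR). The count of higher markers went from 1 to 4 without KO 1 and also to 4 with no filter on low counts. The list summed to 352 (WT 1), 382 (WT 2), 264 (KO 1), 383 (KO 2) and 389 CPM (KO 3). Among dendritic cell markers 3 of 7 tested were lower and 0 higher, namely Cd209a, Flt3 and Itgax (log2 fold changes of -2.45, -2.56 and -2.21, edgeR adjusted p = 0.00541, 0.0141 and 0.0221). Cd209a, Flt3 and Itgax passed the filter on low counts through the wild types alone, so the filter itself favoured a difference and their calls are descriptions. All 3 of these calls were lost if WT 1 was left out (adjusted p = 0.0822, 0.0750 and 0.197 in edgeR), and those of Flt3 and Itgax also without WT 2 (0.128 and 0.0909). The Itgax call was also lost without KO 1 (edgeR adjusted p = 0.0695). None of the 5 tested lymphocyte markers passed in edgeR, with Cd4 closest at a log2 fold change of -1.36 (adjusted p = 0.0516) and alone at an unadjusted p under 0.05.

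S100a14 (chr3:90526849-90528837) encodes a membrane-linked S100 protein of epithelia. It was at 107 (WT 1), 127 (WT 2), 135 (KO 1), 123 (KO 2) and 133 CPM (KO 3). The groups overlapped, and the change was 1.12-fold with a 95% interval of 0.951 to 1.31 (edgeR adjusted p = 0.307). S100a16 (chr3:90537254-90543151), a broadly expressed epithelial relative, was at 183 (WT 1), 235 (WT 2), 231 (KO 1), 230 (KO 2) and 200 CPM (KO 3). All 3 knockouts fell between the wild types, with a change of 1.05-fold (0.872 to 1.28, edgeR adjusted p = 0.700). In the same libraries 6 of 15 urothelial and epithelial markers were higher and 0 lower, against 9.64% higher and 10.0% lower among all tested genes. The median log2 fold change of the 15 was 0.38, and the higher count was 2 without WT 1 and 10 without KO 3. The 6 included the barrier factor gene Grhl3 and the uroplakin gene Upk2, at log2 fold changes of 1.09 and 0.87. The summed level of all 15 markers was 15374 and 17564 CPM in the wild types and 21389 to 23929 CPM in the knockouts.

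S100a4 (chr3:90603770-90606045) encodes a protein that binds non-muscle myosin. It was at 11.8 (WT 1), 16.5 (WT 2), 12.1 (KO 1), 12 (KO 2) and 18.2 CPM (KO 3). The groups overlapped, with KO 3 highest, and the log2 fold change was -0.01 ± 0.22 (SE), an interval of 0.712-fold to 1.39-fold (edgeR adjusted p = 0.980). Beside it, 13 of 15 fibroblast markers were lower and 0 higher, against 10.0% lower and 9.64% higher among all tested genes. The median log2 fold change of the 15 was -0.74. The 4 with the smallest p were Lum, Serpinf1, Pi16 and Vim, at log2 fold changes of -1.59, -1.21, -0.94 and -0.74. The interval of S100a4 reached down to a log2 fold change of -0.49, short of each of these 4 values. The upper ends of their own intervals were -1.34, -0.90, -0.68 and -0.51, so that of Vim came close to it. The 4 were picked for their small p, and the rest of the 15 were not set beside S100a4. How S100a4 stood to the list as a whole is therefore not shown, and the difference itself was not tested. Without WT 1 the fibroblast genes called lower numbered 6, and without KO 3 the genes called higher numbered 2. S100a4 shares 302 of its 584 exon bases with the readthrough gene model Gm42674 of GENCODE vM21, which is not listed in the count files.

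S100a6 (chr3:90612894-90614414), or calcyclin, is a growth-linked gene made by both epithelial and mesenchymal cells. It was at 2676 (WT 1), 3672 (WT 2), 4070 (KO 1), 4170 (KO 2) and 3892 CPM (KO 3). The knockouts lay above both wild types, as in 25.9% of all tested genes, but WT 2 was close to KO 3. The change was 1.27-fold with a 95% interval of 0.997 to 1.63 and did not pass (edgeR adjusted p = 0.148). It passed in DESeq2 (adjusted p = 0.0449) and without WT 2 (edgeR adjusted p = 0.0430). The ratio of S100a6 to S100a4 CPM was 228 (WT 1), 222 (WT 2), 337 (KO 1), 347 (KO 2) and 214 (KO 3), so KO 3 lay with the wild types.

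S100a10 (chr3:93555117-93564645) encodes p11, which is locked in an active shape without calcium and joins annexin A2 at the membrane. It was at 49.5 (WT 1), 60.9 (WT 2), 67.1 (KO 1), 67.1 (KO 2) and 53.9 CPM (KO 3). The groups overlapped, with a change of 1.14-fold (0.932 to 1.39, edgeR adjusted p = 0.333). S100a11 (chr3:93520496-93526288), a partner of annexin A1 in epithelial cells, was at 262 (WT 1), 299.5 (WT 2), 441 (KO 1), 417 (KO 2) and 305 CPM (KO 3). All knockouts were higher, but KO 3 exceeded WT 2 by little, and the change of 1.38-fold (1.09 to 1.75) missed the threshold (edgeR adjusted p = 0.0588). S100a11 passed without KO 3 (edgeR adjusted p = 0.00203), without the filter on low counts (edgeR adjusted p = 0.00217) and in DESeq2 (adjusted p = 0.0164).

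S100a1 (chr3:90511034-90514330, minus strand) encodes a regulator of calcium release channels that is best known from muscle. It was at 211 (WT 1), 268 (WT 2), 404 (KO 1), 425 (KO 2) and 385 CPM (KO 3). The groups were well apart, the lowest knockout lying above the highest wild type by more than the range of either group. The log2 fold change was 0.76 ± 0.12 (SE), or 1.69-fold (1.40 to 2.04, edgeR adjusted p = 0.00269). The call held under every alternative run, with log2 fold changes of 0.59 without WT 1 (edgeR adjusted p = 0.0367) to 0.92 without WT 2 (edgeR adjusted p = 0.00862).

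S100a13 (chr3:90514233-90524581, plus strand) helps to export growth factors and cytokines that lack a signal peptide. It starts next to S100a1 on the opposite strand, and the RefSeq models overlap by 98 bases. It was at 14.4 (WT 1), 21.3 (WT 2), 19.6 (KO 1), 22.8 (KO 2) and 18.2 CPM (KO 3). The groups overlapped, with a change of 1.14-fold (0.872 to 1.5, edgeR adjusted p = 0.468). The ratio of S100a1 to S100a13 CPM was 14.7 (WT 1), 12.6 (WT 2), 20.6 (KO 1), 18.6 (KO 2) and 21.1 (KO 3), higher in each knockout. With the strand setting of the counting not stated in the labels, reads in the shared bases cannot be assigned with certainty.

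**Figure D3:**
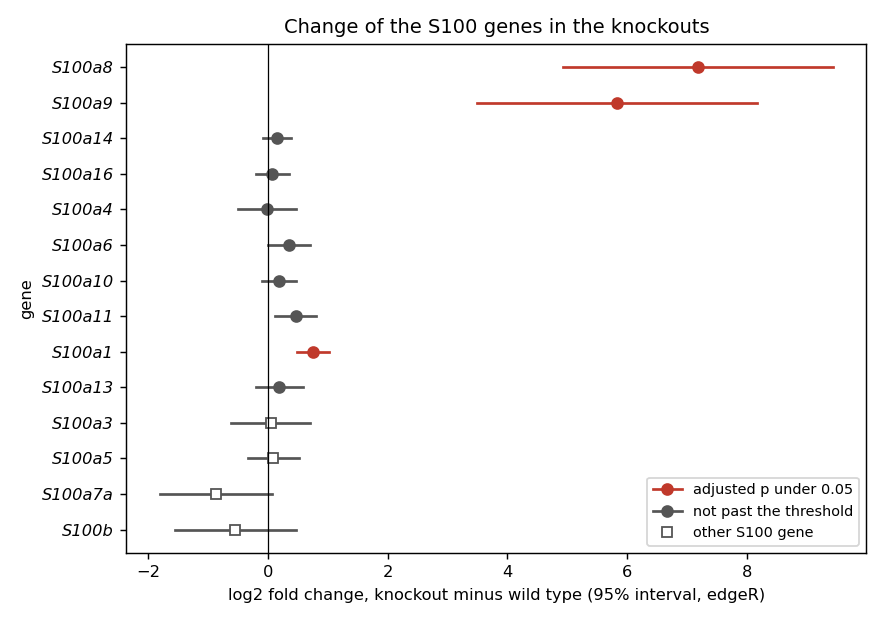
Log2 fold change from wild type to knockout with its 95% interval (edgeR) for the 10 S100 genes (circles) and 4 other S100 genes that were tested (open squares), in red where the adjusted p was under 0.05. S100a8, S100a9 and S100a1 are in red, and the intervals of all others except S100a11 include 0.

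Other S100 genes were low. Of 7 genes on the list of other S100 genes in the files, 5 were tested, and none passed in edgeR (0 at an unadjusted p under 0.05). S100a7a, the mouse relative of human psoriasin and a neighbour of S100a8, was at 1.25 (WT 1), 1.39 (WT 2), 0.941 (KO 1), 0.722 (KO 2) and 0.389 CPM (KO 3). All knockouts lay below both wild types, as in 25.1% of tested genes, and the log2 fold change was -0.86 ± 0.42 (SE; edgeR adjusted p = 0.174). S100a3, S100a5, the glial gene S100b and S100pbp, which encodes an S100P-binding protein and is no S100 gene itself, had log2 fold changes of 0.05, 0.09, -0.54 and -0.07. S100g and S100z were too low to test. So was S100a2, added to these after its values were seen, at 0.234 to 0.376 CPM in all libraries. S100a7l2, listed under its older symbol 9130204L05Rik, had 0 reads, which allows up to 3 counts over all libraries or 0.0335 CPM.

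Between the outermost S100 genes of chromosome 3 lie 56 further genes of the files, among them the Sprr and Lce genes of the cornified envelope, and 7 of these were tested. Of the 7, 3 were higher and 0 lower, against 9.64% higher and 10.0% lower among all tested genes. Lce6a passed the filter through the knockouts alone, so the filter itself favoured a difference and its call is a description. This leaves 2 calls among the other 6. Sprr1a, a cross-linked envelope protein gene, was at 1803 (WT 1), 1742 (WT 2), 3557 (KO 1), 3550 (KO 2) and 3193 CPM (KO 3) (edgeR adjusted p = 0.00119). Lce6a rose 3.55-fold from 0.549 ± 0.184 CPM (SD, n = 2; edgeR adjusted p = 0.010) and Sprr2a3 rose 1.38-fold (edgeR adjusted p = 0.0118). The involucrin gene Ivl, Sprr2f and the S100 fused-type gene Rptn missed the threshold, at log2 fold changes of -0.27, -0.67 and 0.71 (adjusted p = 0.183, 0.446 and 0.128 in edgeR). Sprr1a was called without each library in turn, Lce6a was lost without WT 1 or WT 2 (adjusted p = 0.0710 and 0.0889 in edgeR) and Sprr2a3 without WT 1 (0.104). Sprr2a3 belongs to a family of near-identical copies, so its reads are uncertain. Of the 6 S100 fused-type genes in the files, Rptn was the only one that could be tested.

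Annexins are calcium-dependent membrane-binding proteins and the main intracellular partners of S100 dimers. Of 11 tested, 1 was higher, 0 lower and 10 did not pass, with a median log2 fold change of 0.06. For comparison, 9.64% of all tested genes were higher and 10.0% lower. Anxa8, an annexin of stratified epithelia, was at 86.1 (WT 1), 93.1 (WT 2), 158 (KO 1), 191 (KO 2) and 109 CPM (KO 3). It rose 1.71-fold (edgeR adjusted p = 0.0195), and the call was lost without WT 1 (edgeR adjusted p = 0.171) and without WT 2 (edgeR adjusted p = 0.0926). Anxa2, the partner of S100a10, was at 407 (WT 1), 491 (WT 2), 481 (KO 1), 490 (KO 2) and 388 CPM (KO 3), and its interval of 0.822-fold to 1.24-fold included no change. Anxa1, the partner of S100a11, had an interval of 0.848-fold to 1.18-fold. The other annexins had log2 fold changes of 0.31 (Anxa3), -0.17 (Anxa4), -0.15 (Anxa5), 0.20 (Anxa6), 0.06 (Anxa7), 0.16 (Anxa9), 0.01 (Anxa11) and 0.27 (Anxa13). Anxa3 passed without KO 3 (edgeR adjusted p = 0.00827).

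Receptors for extracellular S100 proteins did not pass in any of 9 tested cases in edgeR (0 at an unadjusted p under 0.05), with a median log2 fold change of 0.02. These include Ager and Tlr4, which sense calprotectin. Those with the smallest p were Cd33, Emb, Alcam and Bsg, at log2 fold changes of -0.82, 0.63, 0.20 and 0.15 (edgeR adjusted p = 0.163, 0.181, 0.307 and 0.402). Without KO 3, Cd33 was called lower (log2 fold change -1.19, adjusted p = 0.0207 in edgeR). Of 18 tested intracellular partners, 3 were higher and 0 lower, with a median of 0.09. Among all tested genes 9.64% were higher and 10.0% lower, and the difference from these shares was not tested. The phosphatase gene Ppp5c rose 1.52-fold, Trp53, which encodes the p53 protein bound by several S100 proteins, rose 1.37-fold, and Syt1, a synaptotagmin that joins S100A13 in export, rose 3.06-fold (edgeR adjusted p = 0.00524, 0.00847 and 0.0123). All 3 were lost if WT 1 was left out (adjusted p = 0.0774, 0.0747 and 0.124 in edgeR), and Syt1 also without WT 2 (0.0851). For the actin-capping gene Capzb the log2 value was 0.26 (adjusted p = 0.11 in edgeR).

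The p11 and annexin A2 complex binds plasminogen and its activators. Of 6 tested genes of that system, 1 was lower and 0 higher, against 10.0% lower and 9.64% higher among all tested genes. The urokinase receptor gene Plaur fell 1.68-fold (edgeR adjusted p = 0.0160), and Plau, Serpine2 and Plgrkt had log2 fold changes of -0.28, 0.25 and -0.20 (edgeR adjusted p = 0.104, 0.164 and 0.273). The Plaur call was lost if WT 1 (adjusted p = 0.0752 in edgeR) or WT 2 (0.11) was left out. Of 16 tested genes for other EF-hand proteins, 5 were lower and 1 higher, with a median of -0.13. The matrix protein gene Sparc fell 2.29-fold, the reticulocalbin genes Rcn3 and Rcn1 fell 1.64-fold and 1.47-fold, and the protease gene Capn1 rose 1.42-fold (edgeR adjusted p = 0.000203, 0.00275, 0.00387 and 0.00884). The Capn1 call was lost if WT 1 was left out (adjusted p = 0.0797 in edgeR).

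**Figure D4:**
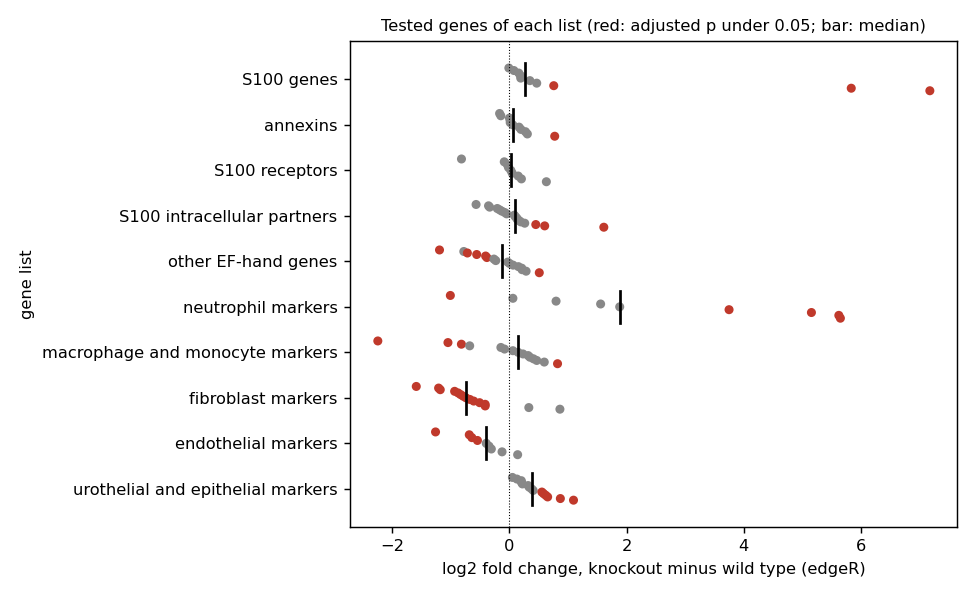
Log2 fold change from wild type to knockout (edgeR) of every tested gene in 10 lists, with red points for an adjusted p under 0.05 and a black bar at the list median. The S100 genes have a median of 0.27 with S100a8 and S100a9 far to the right, the neutrophil markers spread widely, and fibroblast markers lie mostly below 0.

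Among other cell types, 4 of 9 endothelial markers were lower and 0 higher, against 10.0% lower and 9.64% higher among all tested genes. The 4 were Kdr, Flt1, Cdh5 and Egfl7, at log2 fold changes of -1.26, -0.69, -0.64 and -0.55. Of 9 smooth muscle markers 1 was lower (Smtn, -0.33) and 0 were higher. The muscle genes Cnn1 and Acta2 lay the other way, at 1.33 and 0.54, without passing (adjusted p = 0.0824 and 0.0775 in edgeR). Both were called higher in DESeq2 (adjusted p = 0.0434 and 0.0285), without the filter on low counts (0.000694 and 0.000420 in edgeR) and without KO 3 (0.000297 and 0.00180 in edgeR). The muscle list summed to 330 (WT 1), 456 (WT 2), 418 (KO 1), 450 (KO 2) and 302 CPM (KO 3), so the groups overlapped. Flt1 and Cdh5 missed the threshold if WT 1 was left out (adjusted p = 0.0624 and 0.0838 in edgeR), as did Egfl7 without WT 2 (0.0759) and Smtn without WT 1, WT 2, KO 1 or KO 2 (0.144, 0.0759, 0.0996 and 0.0633). None of 6 nerve and glia markers passed in edgeR (0 at an unadjusted p under 0.05).

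Likeness of pattern was taken as Pearson's r of log2 CPM over the 5 libraries among 10249 genes with a mean of 10 CPM or more. For S100a8 the closest were Pdzd4, Abhd4 and Fuk (each r = 1.00 when rounded), but 128 genes had r over 0.99, so 5 libraries set these apart poorly. For S100a14 the closest were Rabepk, BC029722 and Mrpl57, and for S100a4 they were Hdac1, Snapc4 and Ccdc34, with r of 0.99 to 0.998. These values are descriptions over 5 libraries of 2 genotypes that differ in depth.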

How the data were processed

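Per the labels' protocols, urothelium was dissected off the muscle, frozen and pulverised, and TruSeq libraries were made from TRI-Reagent total RNA. HISAT2 2.1.0, HTSeq 0.11.1, DESeq2 and genome build mm10 are named, without roles, per the submitters' processing notes. Annotation and strand setting are not stated there. The authors deposited raw gene counts, 1 file per mouse, and 5 summary entries that name no gene were left out (genes held 49.3% to 60.6% of tallied reads). P-values measure the spread between these mice.

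Low genes were dropped by edgeR's filterByExpr at a minimum count of 10 and total of 15, libraries were scaled with TMM factors, and CPM use these. Genotypes were compared with the edgeR quasi-likelihood test (R 4.3.3, edgeR 4.0.16, limma 3.58.1, DESeq2 1.42.0), checked on simulated data. SE is the log2 fold change divided by the square root of F. Counting intervals are exact binomial at 95%. Positions and promoters come from RefSeq GRCm38.p6 (99.6% of genes matched), exon lengths from GENCODE vM21.

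The 10 genes and all lists were chosen with earlier results of these data known. Named were all S100 genes and annexins tested, up to 4 genes with the smallest p per list (lymphocyte and nerve lists by count), 6 genes between the S100 genes, and the 3 most alike in pattern. Ltf, Ly6g, Mpo, Elane, Stfa2l1, Camp, Trem1, Csf3r, Cxcr2, Fpr1, Mmp9, Cd4, S100a2, Ager and Tlr4 were added after values were seen. Proteins were not analysed here. Alternatives were other scalings, filters and tests, a replicate block and leaving out each library.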

Additional observations from a re-analysis of the deposited data

How the results depend on the processing

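The number of S100 genes called higher was 3 with each other scaling, with a filter at 5 CPM and without Rn45s, Malat1 and Neat1. It was 4 with no filter on low counts, 5 in DESeq2, 2 in the robust fit and in limma-voom, and 2 to 4 when 1 library was left out, and 0 genes were lower under every setting run. The genes changed overall numbered 2907, and 715 to 3989 when 1 library was left out, with 715 without WT 1. Genes called between the S100 genes on the chromosome numbered 3, and 1 to 3 with 1 library left out. With the replicate number as a block, KO 3 has no wild type of the same number and so adds nothing to the fitted change. This fit called 4637 genes and 5 S100 genes, among them S100a11 and S100a10 (adjusted p = 5.89e-05 and 0.0488). Leaving KO 3 out gave 3989 genes and 4 S100 genes. Whether the numbers pair mice cannot be decided here, because the deviations of 2 wild types mirror each other. Deviations of WT 1 had correlations across genes of -0.0553, -0.0516 and 0.0849 with those of KO 1, KO 2 and KO 3. Those of WT 2 had the same values with opposite sign. S100a6 held 66.0% of the summed level per kilobase in the wild types and 75.7% with the longest transcript as length, where S100a4 came above S100a13 and S100a10 above S100a14.

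Of 150 comparisons of the 10 S100 genes with an alternative, 135 kept direction and side of the threshold. Log2 fold changes of opposite sign arose for genes that were not called. With 1 library left out, the ranges were -0.25 to 0.23 for S100a4 (above 0 without WT 2, KO 1 or KO 2), -0.076 to 0.48 for S100a13, -0.097 to 0.25 for S100a16, -0.14 to 0.22 for S100a3, -0.10 to 0.28 for S100a5 and -0.21 to 0.058 for S100pbp (these 5 turned without WT 1). For annexins, the range and then the turned values under other settings were -0.12 to 0.11, and -0.0046, -0.041, -0.024, -0.044, -0.0044, -0.0090 for Anxa1, -0.12 to 0.14, and -0.030, -0.014, -0.034 for Anxa2, -0.074 to 0.12, and -0.028, -0.0048, -0.033, -0.058 for Anxa11 and -0.090 to 0.67, and -0.045 for Anxa13. The cause of these changes was not tested. With 2 and 9 wild-type reads in all, S100a8 and S100a9 have fold changes with wide 95% intervals. Counting error alone gave 46.1 to 1385 for S100a8 and 31.1 to 130 for S100a9. The edgeR fit, which also takes in the spread between libraries, gave 30.3 to 691 and 11.3 to 288.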
